A study of Mus musculus with 8 samples.

Results

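The genes described here build and load major histocompatibility complex (MHC) class I molecules. They were taken by symbol from the deposited count table, with the row of highest mean count over the 8 libraries kept for each gene. All 10 listed genes had a row, out of 22869 gene symbols in the table, and all 10 passed the filter on low counts. Each library was made from cortex. Both groups were APP/PS1 transgenic animals, a genotype that forms amyloid plaques, and both had the strain C57BL/6. In the bexarotene group (4 libraries) mice received bexarotene, which activates retinoid X receptors, and in the vehicle group (4 libraries) they received glycerol at 0.2 mg/kg. The sources used here state neither how much bexarotene was given nor for how long, and give no age, sex or transgene promoter.

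MHC class I molecules show peptides made inside a cell to CD8 T cells and natural killer cells. The heavy chains H2-K1 and H2-D1, which are the classical chains of this strain, and the non-classical H2-T23 pair with the light chain B2m. Peptides are cut by proteasomes, among them the immunoproteasome with its inducible subunits Psmb8 and Psmb9, carried into the endoplasmic reticulum by the transporter of Tap1 and Tap2, and fitted to the heavy chain with the help of tapasin, the product of Tapbp. Nlrc5 is a transactivator of class I genes that acts through promoter-bound factors of the RFX, CREB/ATF and NF-Y families. Interferons raise most of these genes, and in the healthy brain they are known to be low in neurons and higher in endothelial cells and microglia.

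The members lie on 3 chromosomes. In the GENCODE M21 annotation, Tapbp, H2-K1, Psmb9, Tap1, Psmb8, Tap2, H2-D1 and H2-T23 follow each other in this order on chromosome 17, within the MHC region, while B2m is on chromosome 2 and Nlrc5 on chromosome 8. Psmb9 and Tap1 are transcribed away from each other, and their RefSeq starts are 226 bases apart. Of the 10 members, 8 were matched to a promoter sequence of RefSeq (GRCm38.p6, which is not the build mm9 that the submitters' notes name). Tap2 and Nlrc5 were not matched. The 200 bases before the start are shown for 4 members, because they were searched for elements through which class I genes are known to be controlled. The windows of H2-K1 and H2-D1 can be compared by eye, and that of Tap1 lies between the starts of Tap1 and Psmb9. Capitals mark the letters of a kB element (GGGA and CC with NTNN between them, bound by NF-kB), a short IRF element (TTTCNNTT, bound by interferon regulatory factors), a CRE core (TGACG) or a CCAAT box (CCAAT), each searched on both strands.
H2-K1, chr17:34000348-34000547, minus strand: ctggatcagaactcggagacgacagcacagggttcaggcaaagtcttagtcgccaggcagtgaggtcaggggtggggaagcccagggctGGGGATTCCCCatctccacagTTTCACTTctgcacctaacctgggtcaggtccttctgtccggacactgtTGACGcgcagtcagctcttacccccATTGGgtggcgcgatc
H2-D1, chr17:35262894-35263093, plus strand: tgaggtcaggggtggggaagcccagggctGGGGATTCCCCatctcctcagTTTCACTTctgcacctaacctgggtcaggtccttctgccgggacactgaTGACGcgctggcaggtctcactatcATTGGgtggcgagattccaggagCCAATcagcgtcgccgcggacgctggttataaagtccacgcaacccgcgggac
B2m, chr2:122147487-122147686, plus strand: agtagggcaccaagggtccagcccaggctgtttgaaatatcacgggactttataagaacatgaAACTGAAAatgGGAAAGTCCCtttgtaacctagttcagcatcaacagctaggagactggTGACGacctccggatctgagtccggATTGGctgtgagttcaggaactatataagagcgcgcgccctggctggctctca
Tap1, chr17:34187356-34187555, plus strand: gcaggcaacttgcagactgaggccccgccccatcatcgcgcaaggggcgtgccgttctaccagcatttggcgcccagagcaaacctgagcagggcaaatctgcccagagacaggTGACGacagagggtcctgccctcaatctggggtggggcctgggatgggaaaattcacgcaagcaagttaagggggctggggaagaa

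The promoters of H2-K1 and H2-D1 share most of their letters. In an alignment of the upstream sequences with end gaps left free, 167 of 191 columns were identical, or 87.4%. The motifs were chosen with the sequences in view. The kB element was found in H2-K1, H2-D1 and B2m, and in 2.7% of 27025 promoter windows of 200 bases. The short IRF element was in H2-K1, H2-D1, H2-T23 and B2m, against 17.2% of all windows. A longer form, the short one followed by TC, was in H2-T23 and B2m and in 2.3% of all windows. The CRE core was in 5 of the 8 matched members (H2-K1, H2-D1, B2m, Tap1 and Psmb9) and in 15.8% of all windows. In the Tap1 window it was the only marked element. The CCAAT box was in 6 (H2-K1, H2-D1, H2-T23, B2m, Tapbp and Psmb9) and in 30.1%. The hexamer AGGTCA, to which many nuclear receptors bind, was in H2-K1, H2-D1 and H2-T23 and in 11.2% of all windows. A match describes these letters and is not evidence of binding.

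Total counts over all rows were between 60106192 and 76542067 in the bexarotene libraries and between 42413825 and 60955403 in the vehicle libraries, and rows of isoforms can hold the same reads more than once. Tap1 and Tapbp each had 2 rows with equal counts. The labels do not tie libraries to single animals, and all p-values rest on the spread among these 8 libraries, which may be technical. Replicates 1 and 3 of both groups were separated from replicates 2 and 4 along the leading principal component, with 36.5% of the variance. The female RNA Xist and the male Y-linked genes separated the vehicle libraries likewise. Xist was at 248 and 307 CPM in vehicle replicates 1 and 3 and below 1 CPM in vehicle replicates 2 and 4, while all 4 bexarotene libraries had both Xist (84.7 to 218 CPM) and Y-linked transcripts (9.81 to 88.5 CPM). Values within replicates 1 and 3 and within replicates 2 and 4 are therefore given beside the pooled ones. Summed neuron markers, at 5252 to 6873 CPM in bexarotene and 6052 to 6751 CPM in vehicle libraries, were abundant. Markers of striatal projection neurons, which the label cortex does not name, were also present in sum, at 386 to 1540 CPM in bexarotene and 303 to 865 CPM in vehicle libraries.

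All 10 members had a positive log2 fold change under bexarotene, and 0 passed the test across all genes. The test was edgeR's quasi-likelihood test with Benjamini-Hochberg adjustment over all 21285 rows tested, and the lowest adjusted p of a member was 0.419. Over all 16069 genes tested, 0.00622% were called higher and 0% lower. The other tools also called 0 members, while DESeq2 called 0.407%, edgeR's exact test 0.18% and limma's voom 0.00622% of genes higher. At an unadjusted p below 0.05, 6 of the 10 members were higher and 0 lower, against 4.88% of all genes higher and 3.89% lower. By the same test, 20 of 28 interferon-stimulated genes, 11 of 14 microglia markers and 6 of 14 constitutive proteasome subunits, described below, were higher. Among other class I heavy chain genes 2 of 19 were, and among upstream regulators 2 of 27. A high share was thus not particular to the members. By DESeq2 7 members were higher at that level, against 4.47% of genes, and by edgeR's exact test and by voom 6 were, against 4.03% and 5.18%. With the replicate number as a block 7 were higher, against 5.53% of genes. The median log2 fold change of the members was 0.42, from 0.29 for Tap2 to 0.84 for Nlrc5, beside 0.00092 for all genes tested, of which 50.2% were positive. In bulk tissue, more cells of a type and more RNA per cell cannot be told apart. Levels are given as CPM, the usual unit of read counts relative to library size, after TMM normalisation.

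**Figure D1:**
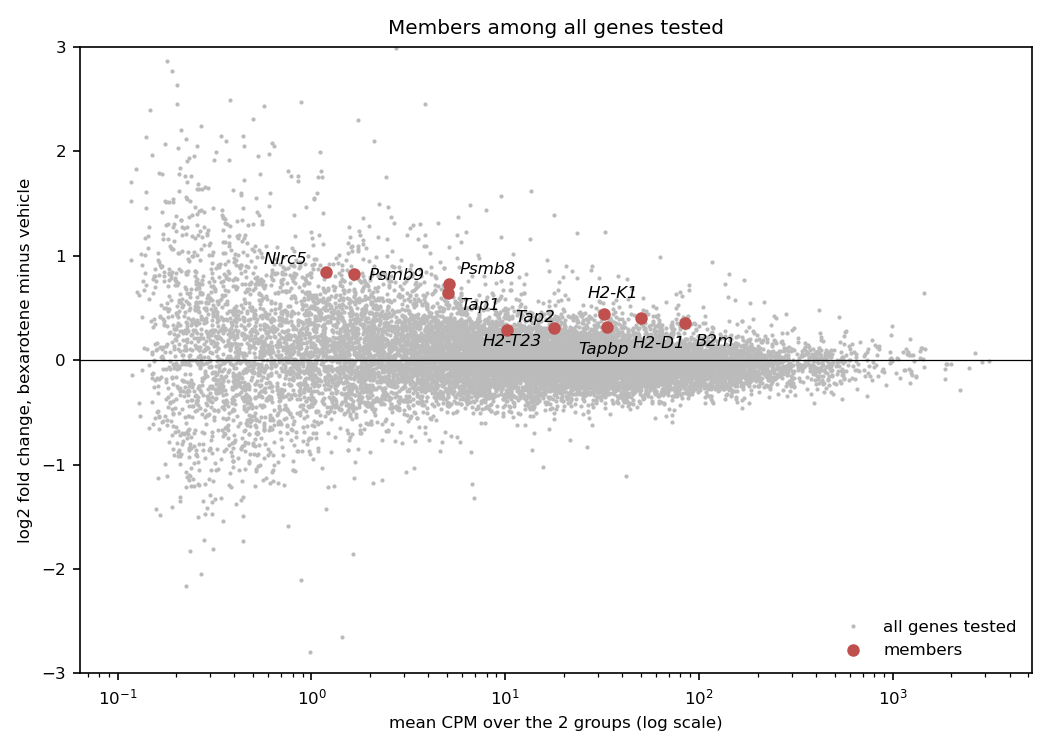
Log2 fold change (bexarotene minus vehicle) against mean CPM, on a log axis, for all 16069 genes tested (grey) and the 10 members (red); 7 genes beyond a log2 value of 3 are not drawn. The 10 members lie above the zero line, between 0.29 and 0.84.

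The classical heavy chains had higher mean levels under bexarotene, 1.32-fold for H2-D1 and 1.36-fold for H2-K1. H2-D1 was at 69.4, 50.7, 49.9 and 58.3 CPM in bexarotene replicates 1 to 4, against 38.8, 45.4, 45.9 and 42.8 CPM in vehicle replicates 1 to 4. The groups did not overlap, and bexarotene replicate 1 was the highest library. Its mean was 57.1 ± 9.03 CPM in the bexarotene group, against 43.2 ± 3.27 CPM in the vehicle group (SD, n = 4 each). Its log2 fold change was 0.40 ± 0.11 (SE), for which edgeR gave a quasi-likelihood p of 0.00571 unadjusted and 0.419 adjusted. An exact two-sided permutation test of log2 CPM gave p = 0.0286, the smallest that 4 against 4 libraries allow. H2-K1 was at 47.5, 30.3, 35.2 and 36.4 CPM in bexarotene replicates 1 to 4, against 23.3, 28.6, 27.4 and 30.6 CPM in vehicle replicates 1 to 4. The groups overlapped by the lowest bexarotene library, replicate 2, which lay just under vehicle replicate 4. Between the groups the log2 fold change was 0.44 ± 0.14, for which edgeR gave a quasi-likelihood p of 0.0102 unadjusted and 0.469 adjusted.

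The light chain B2m, which most class I heavy chains need to reach the cell surface, was the most abundant member. Its levels were 103, 88.1, 87.6 and 101 CPM in bexarotene replicates 1 to 4, against 63.0, 75.8, 83.4 and 74.3 CPM in vehicle replicates 1 to 4. The groups did not overlap, and the highest vehicle library, replicate 3, lay close under the lowest bexarotene library. On the log2 scale the difference was 0.35 ± 0.10, for which edgeR gave a quasi-likelihood p of 0.00558 unadjusted and 0.419 adjusted, and the exact permutation p was 0.0286. B2m and H2-D1 were the 2 members whose groups did not overlap, where 3.61% of all genes had every bexarotene library above every vehicle library and 2.16% every one below. Without bexarotene replicate 2 the count was 6, where 5.97% of all genes had no overlap and were higher. Without vehicle replicate 2 it was 4, where 6.56% of all genes were. With all 8 libraries, 6 of 14 microglia markers, 6 of 28 interferon-stimulated genes and 4 of 14 constitutive proteasome subunits were higher without overlap. Among other class I heavy chain genes 1 of 19 was, and among upstream regulators 0 of 27.

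Ratios of heavy to light chain differed little between the groups. The ratio of H2-D1 to B2m counts was 0.6001 ± 0.0509 under bexarotene and 0.586 ± 0.0284 under vehicle (SD, n = 4 each). That of H2-K1 to B2m was 0.393 ± 0.0529 under bexarotene and 0.372 ± 0.0343 under vehicle, and that of H2-K1 to H2-D1 was 0.653 ± 0.0502 under bexarotene and 0.636 ± 0.0548 under vehicle. Differences between the group means were smaller than the SD in all 3 ratios. Of 8 ratios between members compared by exact permutation tests, the lowest p was 0.286, and every p adjusted over the 8 was 0.771.

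H2-T23, the mouse gene for Qa-1, which presents leader peptides of other class I chains to receptors of natural killer cells, varied in another way. Its levels were 19.9, 19.4, 16.3 and 23.3 CPM in bexarotene replicates 1 to 4, against 11.5, 27.1, 8.16 and 16.8 CPM in vehicle replicates 1 to 4. The vehicle libraries spanned a 3.32-fold range, with replicate 2 above and replicates 1 and 3 below all bexarotene libraries. The bexarotene libraries spanned a 1.43-fold range. The mean was 19.7 ± 2.85 CPM in the bexarotene group, against 15.9 ± 8.27 CPM in the vehicle group (SD, n = 4 each), and the log2 fold change was 0.31 ± 0.33, for which edgeR gave a quasi-likelihood p of 0.371 unadjusted. Leaving out vehicle replicate 3 gave 0.09, leaving out vehicle replicate 1 gave 0.18, and leaving out vehicle replicate 2 gave 0.70. The vehicle libraries with Xist were the 2 low ones, and whether sex bears on this gene was not tested. Of its 50-base stretches, 28.8% occur exactly in transcripts of other genes in GENCODE M21, 12.9% in H2-T-ps alone, so its counts are uncertain. The same share was 14.3% for H2-D1 and 8.8% for H2-K1, which shared 6.9% with H2-D1.

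**Figure D2:**
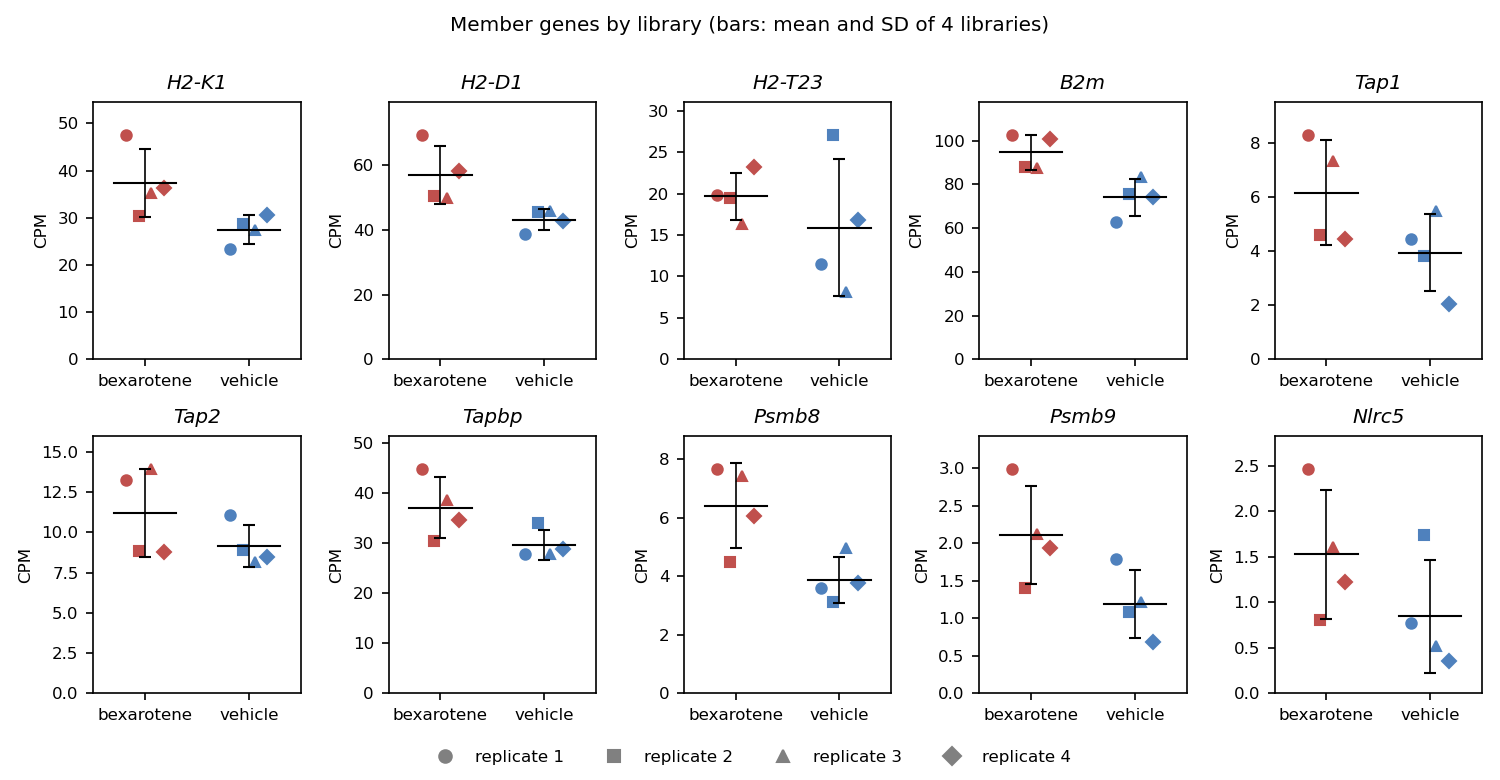
CPM of each member in every library, with bexarotene left of vehicle and the replicate number given by the symbol; lines show the mean and SD of 4 libraries. H2-D1 and B2m do not overlap between the groups, and H2-T23 and Nlrc5 have a wide vehicle range, up to 27.1 and 1.74 CPM in vehicle replicate 2.

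The immunoproteasome subunits had larger fold changes at lower levels. Psmb8, which replaces the constitutive subunit Psmb5, was at 7.64, 4.49, 7.40 and 6.06 CPM in bexarotene replicates 1 to 4, against 3.60, 3.14, 4.97 and 3.75 CPM in vehicle replicates 1 to 4. Bexarotene replicate 2 lay below vehicle replicate 3, and the other bexarotene libraries were above every vehicle library. The fold was 1.66, with a log2 fold change of 0.73 ± 0.21, for which edgeR gave a quasi-likelihood p of 0.00621 unadjusted and 0.427 adjusted. Psmb9, which replaces Psmb6, was at 2.98, 1.41, 2.12 and 1.93 CPM in bexarotene replicates 1 to 4, against 1.79, 1.09, 1.22 and 0.687 CPM in vehicle replicates 1 to 4. Here too bexarotene replicate 2 was the single bexarotene library under a vehicle library, replicate 1. The log2 fold change was 0.83 ± 0.35, for which edgeR gave a quasi-likelihood p of 0.039 unadjusted and 0.562 adjusted. Its mean count was 104 per library, so counting error adds to its spread.

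The peptide transporter subunits differed in how far the groups overlapped. Tap1 was at 8.30, 4.61, 7.35 and 4.44 CPM in bexarotene replicates 1 to 4, against 4.44, 3.81, 5.49 and 2.06 CPM in vehicle replicates 1 to 4. Bexarotene replicates 1 and 3 stood above all other libraries, and vehicle replicate 4 below all others. Its log2 fold change was 0.64 ± 0.31, for which edgeR gave a quasi-likelihood p of 0.0659 unadjusted. With the replicate number as a block, a pairing that no other label supports, that test gave 0.00638 unadjusted and 0.369 adjusted. The block made the unadjusted p larger for H2-K1, H2-D1, B2m and Tapbp, and smaller for the other members. Tap2 was at 13.3, 8.87, 13.9 and 8.81 CPM in bexarotene replicates 1 to 4, against 11.1, 8.94, 8.19 and 8.48 CPM in vehicle replicates 1 to 4. Bexarotene replicates 2 and 4 lay within the vehicle range. Between the groups the log2 fold change was 0.29 ± 0.18, for which edgeR gave a quasi-likelihood p of 0.142 unadjusted, and it was 0.17 without bexarotene replicate 3.

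Tapbp, the chaperone that bridges the transporter and the heavy chain, was at 44.8, 30.4, 38.7 and 34.7 CPM in bexarotene replicates 1 to 4, against 27.9, 34.2, 27.9 and 29.0 CPM in vehicle replicates 1 to 4. Vehicle replicate 2 stood above the other vehicle libraries and above bexarotene replicate 2. On the log2 scale the difference was 0.32 ± 0.13, for which edgeR gave a quasi-likelihood p of 0.0281 unadjusted and 0.544 adjusted. Nlrc5 was the rarest member, at 2.46, 0.806, 1.61 and 1.23 CPM in bexarotene replicates 1 to 4, against 0.776, 1.74, 0.520 and 0.352 CPM in vehicle replicates 1 to 4. Vehicle replicate 2 was again high, above 3 of the bexarotene libraries. The log2 fold change was 0.84 ± 0.53, for which edgeR gave a quasi-likelihood p of 0.143 unadjusted. Leaving out bexarotene replicate 1 gave 0.52 and leaving out vehicle replicate 2 gave 1.48, and its counts were between 21 and 154 per library.

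The strand setting of the counting is not given, so reads of genes that overlap on opposite strands cannot be told apart. In GENCODE M21 this touches 8 members, among them Psmb9 and Tap1, which overlap each other. H2-K1 and H2-D1 have no overlapping gene on the other strand.

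Per kilobase of transcript, the members covered a wide range of levels. B2m came first with a mean of 98.2 CPM per kb over the 8 libraries. H2-D1 followed at 23.9, H2-K1 at 20.03, H2-T23 at 12.1 and Tapbp at 11.5 CPM per kb. Psmb8 was at 3.15, Tap2 at 2.96, Tap1 at 1.94, Psmb9 at 1.22 and Nlrc5 at 0.171 CPM per kb. Most neighbours in this order kept it in all 8 libraries. The exceptions were H2-K1 over H2-T23 in 7, Psmb8 over Tap2 in 5 and H2-T23 over Tapbp in 4 of the 8 libraries, so the levels of the last 2 pairs were not separated.

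The difference between the groups was uneven across the libraries. Within replicates 1 and 3 the median log2 fold change of the members was 0.68, and within replicates 2 and 4 it was 0.24. B2m, H2-D1, Tap1, Psmb8 and Psmb9 had log2 fold changes of 0.38, 0.49, 0.65, 0.81 and 0.77 within replicates 1 and 3. In the same order they had 0.33, 0.30, 0.63, 0.61 and 0.91 within replicates 2 and 4. H2-K1 had 0.70 within replicates 1 and 3 and 0.17 within replicates 2 and 4. Tapbp had 0.58 and 0.04, Tap2 0.50 and 0.02, H2-T23 0.89 and -0.04, and Nlrc5 1.66 and -0.04, in the same order of subsets. Within replicates 1 and 3, H2-T23 and Tapbp passed edgeR's quasi-likelihood test with adjusted p of 0.0466 and 0.0336, where 2.06% of all genes were called higher. The vehicle libraries of that subset had Xist and Y-linked transcripts below 1 CPM, and those of the other subset the reverse. All bexarotene libraries had both, so treatment and sex cannot be told apart within either subset. In that subset 9 members were higher at an unadjusted p below 0.05, against 11.6% of all genes. Within replicates 2 and 4, 0 members passed; 0% of all genes were called higher, and 2 members were higher at an unadjusted p below 0.05, against 2.97% of all genes. The difference between the subsets itself, tested as an interaction in edgeR's quasi-likelihood fit that was added after the data were seen, passed for 0 members, with a lowest unadjusted p of 0.0132 and an adjusted p of 0.24 for Tapbp, and for 0 of all genes.

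**Figure D3:**
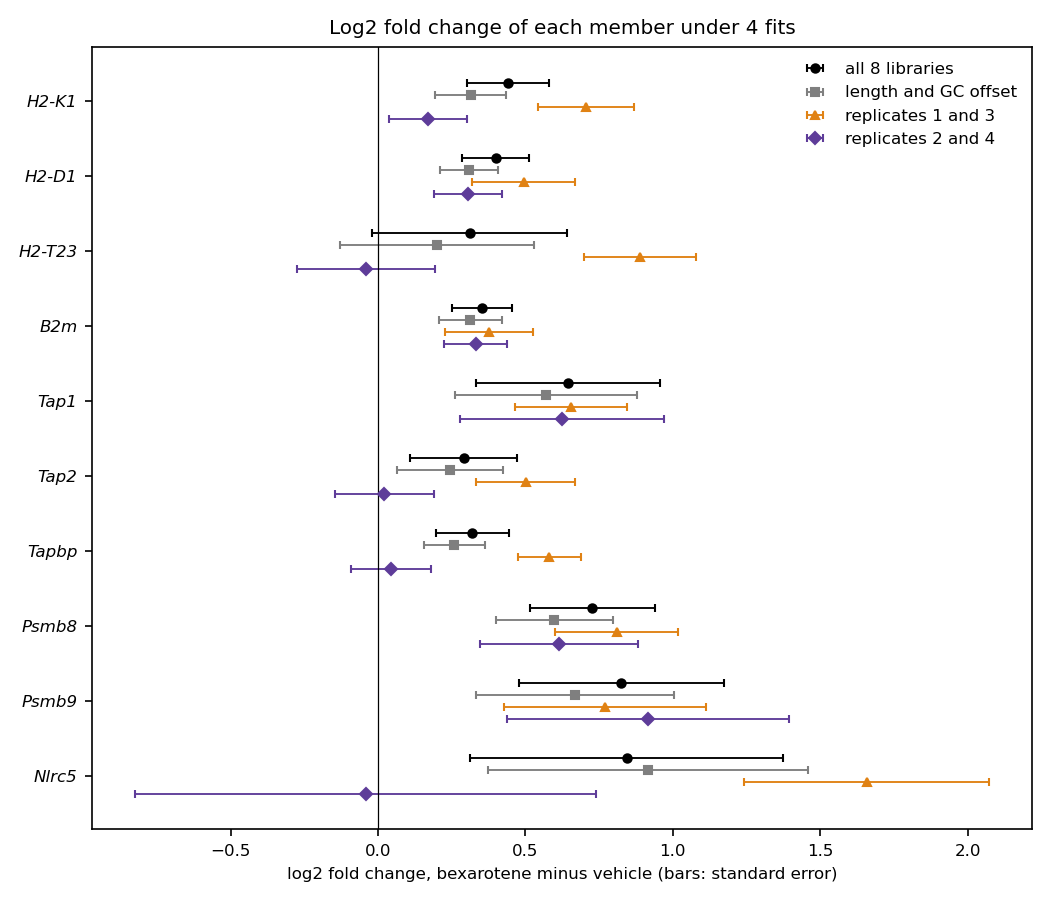
Log2 fold change of each member (bexarotene minus vehicle) with its standard error in 4 fits: all 8 libraries, all 8 with a length and GC offset, replicates 1 and 3, and replicates 2 and 4. B2m, H2-D1, Tap1, Psmb8 and Psmb9 stay above 0.29 in every fit, while H2-T23 and Nlrc5 are at -0.04 within replicates 2 and 4.

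Fold changes over all genes followed transcript length, so short transcripts tended to be higher under bexarotene. The Spearman correlation across 11560 genes, which are not independent replicates, was -0.47. The members' transcripts were between 860 and 6945 nt long, and most were shorter than 2897 nt, the median of all genes tested. With an offset for length and GC content per library, the median log2 fold change of the members was 0.31. In that fit H2-K1, H2-D1 and B2m were each at 0.31, H2-T23 at 0.20, Tap1 at 0.57, Tap2 at 0.25, Tapbp at 0.26, Psmb8 at 0.60, Psmb9 at 0.67 and Nlrc5, the longest transcript, at 0.92. At an unadjusted p below 0.05, 5 members were higher with the offset, against 3.27% of all genes, and Psmb9 was the member no longer among them, with an unadjusted p of 0.0748 from edgeR.

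The other genes of the pathway were less uniform. Of 22 other class I heavy chain and class I-like genes, 19 were tested, 16 were higher and 3 lower, with a median log2 fold change of 0.20, and 0 passed in either direction. Cd1d1, which presents lipids, was at 0.986 ± 0.0473 CPM in the bexarotene group, against 0.534 ± 0.17 CPM in the vehicle group (SD, n = 4 each), with no overlap between the groups. H2-Q4, a non-classical chain, was at 9.10, 3.28, 6.75 and 4.56 CPM in bexarotene replicates 1 to 4 and between 3.15 and 4.36 CPM in vehicle libraries. H2-Q7 and H2-Q9 held the same values in every library, so their reads cannot be told apart. Of 14 peptide supply and assembly factors, 7 were higher and 7 lower, with a median of 0.02, and 0 passed. Psmb10, the remaining inducible catalytic subunit, was at 31.4 ± 2.17 CPM in the bexarotene group, against 23.7 ± 4.46 CPM in the vehicle group, a log2 fold change of 0.41 ± 0.13. Lnpep, an aminopeptidase that trims peptides for cross-presentation, had -0.51 ± 0.19.

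The constitutive core of the proteasome had a smaller median fold change than Psmb8 and Psmb9, a difference that was not tested. Of its 14 subunits tested, 13 were higher and 1 lower, with a median log2 fold change of 0.19, and 0 passed in either direction. Psma7 was at 61.8 ± 0.9951 CPM in the bexarotene group, against 50.2 ± 1.79 CPM in the vehicle group (SD, n = 4 each), with no overlap. Psmb5, the constitutive counterpart of Psmb8, was at 41.7 ± 1.36 CPM in the bexarotene group, against 35.2 ± 2.11 CPM in the vehicle group, a log2 fold change of 0.24 ± 0.07.

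Genes upstream of class I expression had a median log2 fold change of 0.13. Of 27 such regulators tested, 21 were higher and 6 lower, and 0 passed. Irf7, a transcription factor that amplifies type I interferon production, was at 9.10, 3.22, 9.11 and 4.26 CPM in bexarotene replicates 1 to 4 and between 1.76 and 3.62 CPM in vehicle libraries. Irf1, a direct activator of class I promoters, had a log2 fold change of 0.20 ± 0.16, and Rfx5, a subunit of the complex through which Nlrc5 acts, had -0.11 ± 0.13.

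Interferon-stimulated genes outside antigen presentation, and MHC class II genes, had larger median fold changes than the members, a difference that was not tested. All 28 tested interferon-stimulated genes were higher, with a median log2 fold change of 0.90, and 0 passed. On the log2 scale, their mean level relative to the 8 libraries was 1.0001, -0.20, 0.90 and 0.08 in bexarotene replicates 1 to 4 and between -0.62 and -0.35 in vehicle libraries. Irgm1, an interferon-induced GTPase, was at 14.9, 9.74, 14.2 and 9.26 CPM in bexarotene replicates 1 to 4 and between 6.36 and 7.81 CPM in vehicle libraries, and Bst2 had a log2 fold change of 1.20 ± 0.25. The members' own mean relative log2 level was 0.61, -0.06, 0.33 and 0.19 in bexarotene replicates 1 to 4 and between -0.49 and -0.05 in vehicle libraries. Bexarotene replicates 1 and 3 were thus high and replicate 2 lowest in both. All 9 class II genes were higher, with a median of 1.01, and 0 passed. H2-Ab1, a class II beta chain, was at 2.54 ± 1.26 CPM in the bexarotene group, against 1.14 ± 0.505 CPM in the vehicle group (SD, n = 4 each), and H2-DMb1, a class II peptide exchange factor, had a log2 fold change of 0.96 ± 0.34. Retinoid and LXR target genes were higher in 11 of 12, with a median of 0.27, and 0 passed. At an unadjusted p below 0.05 by edgeR's quasi-likelihood test, 3 of these 12 were higher, against 4.88% of all genes. Apoe had 0.64 ± 0.14 and Stra6 0.50 ± 0.14, the 2 with the smallest p. Abca1, Srebf1 and Abcg1 had -0.12 ± 0.21, 0.01 ± 0.15 and 0.08 ± 0.09.

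**Figure D4:**
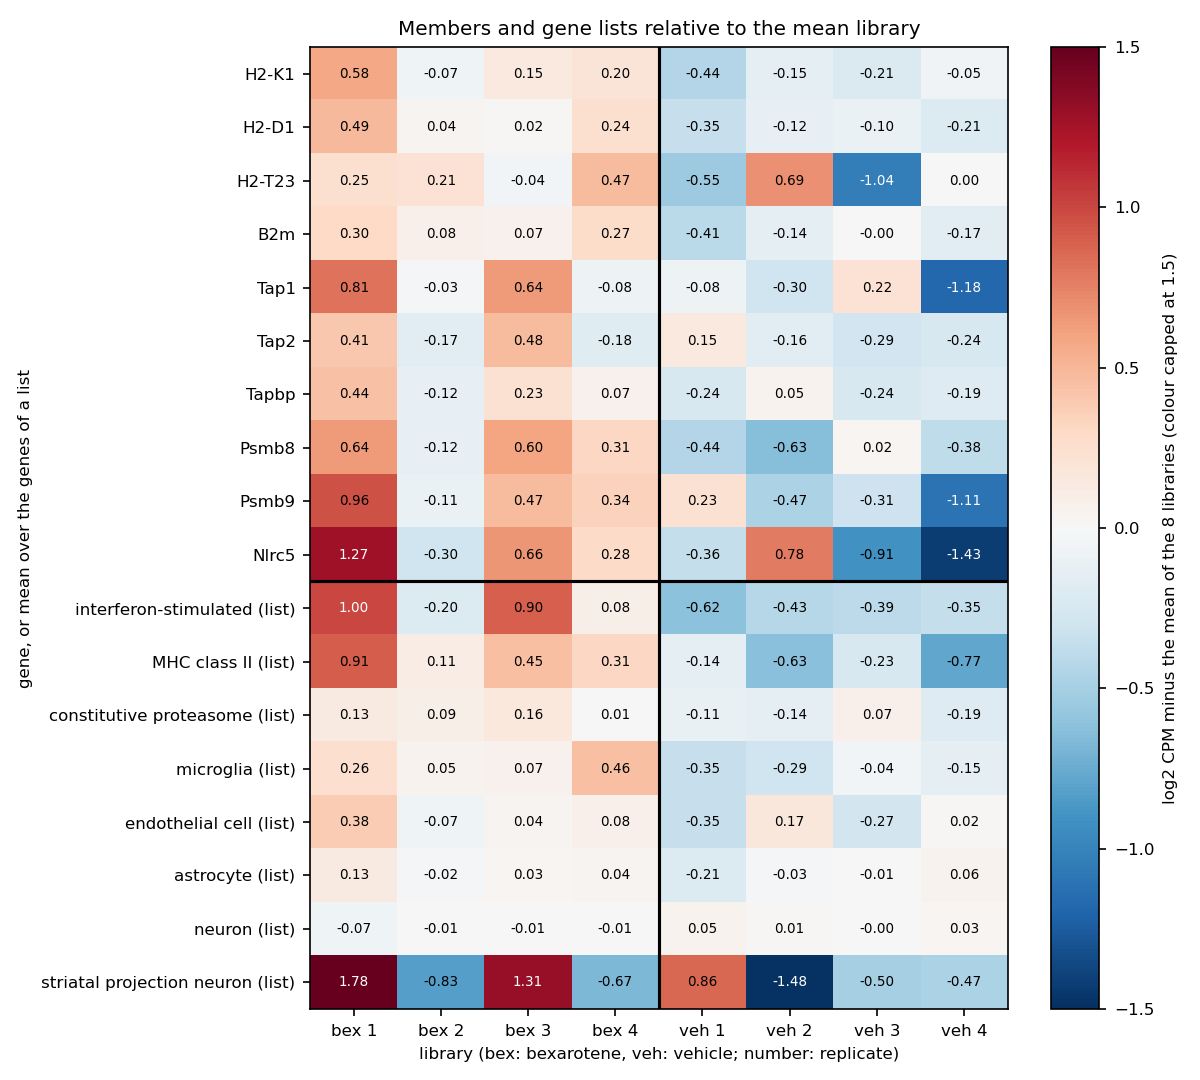
Log2 CPM of each member, and the mean over gene lists, relative to the mean of the 8 libraries, with the bexarotene libraries left of the vehicle libraries. Bexarotene replicate 1 is the highest library for H2-K1, H2-D1, B2m, Tap1, Tapbp, Psmb8, Psmb9 and Nlrc5, and the striatal list is high in bexarotene replicates 1 and 3 and vehicle replicate 1.

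Microglia and vascular cells are known to carry class I molecules. Most of their markers had positive fold changes, and for both vascular lists the summed levels overlapped between the groups. At an unadjusted p below 0.05 by edgeR's quasi-likelihood test, 11 of 14 microglia, 0 of 12 endothelial and 1 of 9 pericyte and smooth muscle markers were higher. Among all genes 4.88% were. All 14 microglia markers were higher (median log2 fold change 0.40), and their summed level was 768 to 1024 CPM in bexarotene and 592 to 732 CPM in vehicle libraries. The microglia list was highest in bexarotene replicate 4, at 0.46, where the members' mean level was 0.19. Single members differed widely in that library, from -0.18 for Tap2 to 0.47 for H2-T23, with B2m at 0.27. Endothelial markers were higher in 10 of 12, with a median of 0.21 and summed levels of 327 to 400 CPM in bexarotene and 287 to 376 CPM in vehicle libraries. Pericyte and smooth muscle markers were higher in 8 of 9, with a median of 0.43 and summed levels of 131 to 197 CPM in bexarotene and 115 to 140 CPM in vehicle libraries. Their part in the members' difference was not tested. In these lists, and in all other cell type lists, 0 genes passed in either direction.

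Members of the T cell list did not all behave alike. Over the whole list, 4 of 10 genes were tested and 3 were higher, with summed levels of 3.74 to 11.6 CPM in bexarotene and 2.93 to 5.76 CPM in vehicle libraries. Cd4, which microglia and other myeloid cells can also express, was at 6.40, 0.887, 4.40 and 1.45 CPM in bexarotene replicates 1 to 4 and between 0.394 and 1.74 CPM in vehicle libraries. The T cell kinase genes Zap70 and Lck had log2 fold changes of 1.01 ± 0.34 and 0.67 ± 0.46, and Cd4, Zap70 and Lck stood higher in bexarotene replicates 1 and 3 than in most other libraries. The remaining tested gene, Cd5, had -0.57 ± 0.48. The CD3 and CD8 genes Cd3d, Cd3e, Cd3g, Cd8a and Cd8b1 did not pass the filter on low counts, and the highest count among them was 38, for Cd8a in vehicle replicate 3. Of 8 natural killer cell genes, Eomes was the 1 tested, with 440 counts in vehicle replicate 4 and 0 in vehicle replicate 3, while the bexarotene libraries had between 22 and 31. The summed levels of the natural killer cell list were 0.454 to 0.686 CPM in bexarotene and 0.484 to 7.37 CPM in vehicle libraries. Eomes alone made up the 7.37 CPM in vehicle replicate 4, where every other gene of that list had 0 counts. That sum therefore does not describe the list as a whole. The part of T cells and natural killer cells in the members' difference was not tested. B and plasma cell genes had 3 of 7 tested and 2 higher, at 1.34 to 2.27 CPM in bexarotene and 1.20 to 1.60 CPM in vehicle libraries in sum. Neutrophil and monocyte genes had 4 of 11 tested and 1 higher, at 17.3 to 26.8 CPM in bexarotene and 15.1 to 19.6 CPM in vehicle libraries in sum. Most of that sum was Lyz2, at 13.9 to 25.8 CPM in bexarotene and 10.8 to 18.7 CPM in vehicle libraries. Lyz2 was also the 1 higher gene, with a log2 fold change of 0.40 ± 0.22. Ngp, S100a8 and S100a9 had -0.52 ± 0.96, -0.84 ± 1.03 and -0.11 ± 0.46. Erythrocyte genes were higher in 5 of 6 tested, at 4.60 to 37.9 CPM in bexarotene and 7.71 to 17.002 CPM in vehicle libraries in sum. Hba-a1 and Hba-a2 had the same counts in every library, as did Hbb-b1 and Hbb-b2, so this count and sum hold the same reads more than once.

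Astrocyte markers were higher in 8 of 10 (median 0.05), neuron markers in 4 of 10 (median -0.01) and oligodendrocyte markers in 8 of 8 (median 0.22). Summed astrocyte markers were at 4191 to 4747 CPM in bexarotene and 4037 to 5330 CPM in vehicle libraries, and summed oligodendrocyte markers at 1555 to 2510 CPM in bexarotene and 1220 to 2723 CPM in vehicle libraries. All 9 choroid plexus genes were higher (median 1.44), at 78.1 to 1473 CPM in bexarotene and 18.8 to 43.0 CPM in vehicle libraries in sum, with the maximum in bexarotene replicate 2, the bexarotene library with the lowest members' level. All 12 striatal genes tested were higher (median 0.89), and their mean relative log2 level was 1.78, -0.83, 1.31 and -0.67 in bexarotene replicates 1 to 4, while vehicle replicates 1 to 4 had 0.86, -1.48, -0.50 and -0.47. Bexarotene replicates 1 and 3 were thus high for the striatal genes, the interferon-stimulated genes and the members alike. Vehicle replicate 1 was the highest vehicle library for the striatal genes, at 0.86. The members were at -0.25, -0.05, -0.29 and -0.49 in vehicle replicates 1 to 4. The part of tissue composition in the members' difference was not tested.

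The genes whose pattern over the 8 libraries was most like that of the members were Cope, Sod3, Uba7, Rpl41 and Ddrgk1. Likeness was the Pearson correlation of log2 CPM with the mean of the members' standardised profiles over n = 8 libraries that share depth and composition, and it was 0.984, 0.977, 0.975, 0.974 and 0.972 in that order. Uba7, the enzyme that activates the ubiquitin-like modifier ISG15, was at 6.73, 2.85, 5.05 and 4.24 CPM in bexarotene replicates 1 to 4 and between 2.23 and 2.91 CPM in vehicle libraries. Sod3, the extracellular superoxide dismutase, was at 20.8, 13.5, 16.5 and 15.8 CPM in bexarotene replicates 1 to 4 and between 12.3 and 13.1 CPM in vehicle libraries. Both were highest in bexarotene replicate 1, as was the members' mean profile. Choosing genes by likeness favours this peak and positive fold changes, so neither is a separate result. Cope, a subunit of the coatomer coat, had a log2 fold change of 0.24 ± 0.08, Ddrgk1, an adaptor of protein ufmylation, 0.29 ± 0.10, and Rpl41, a ribosomal protein gene with many pseudogene copies, 0.60 ± 0.12.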

How the data were processed

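RNA from mouse cortex was sequenced in 8 libraries made with a stranded TruSeq mRNA kit, per the labels' protocols. The authors deposited 1 raw count per RefSeq transcript and library; the values are whole and their totals unequal. The submitters' processing notes name mm9 and edgeR. The sources used here name no aligner, counting program or strand setting. The 28644 rows were fitted as deposited with edgeR 4.0.16 (R 4.3.3), using TMM scaling, filterByExpr, a robust quasi-likelihood dispersion and group as the only term, and Benjamini-Hochberg adjustment over 21285 rows; adjusted p below 0.05 was called. Each log2 fold change is bexarotene over vehicle, and its SE was derived from the F statistic. Exact permutation tests used log2 CPM with a prior count of 2. Transcript lengths came from GENCODE M21, with 99.1% of rows matched. The fits were tested on simulated data. DESeq2 1.42.0 and limma 3.58.1 gave alternatives, and mgcv 1.9.3 the offsets.

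Groups and replicate numbers came from titles. For libraries with the same number, deviations from the group mean had correlations of 0.427, 0.278, 0.144 and 0.163 for replicates 1 to 4, all over 0.1, and the numbers were taken to pair the libraries in a blocked alternative. No other label supports that pairing, and 2 of the 4 pairs did not match best: bexarotene replicate 3 correlated more with vehicle replicate 1 (0.439) and bexarotene replicate 4 with vehicle replicate 2 (0.232). The members, the 7 pathway lists and the 13 cell type lists were chosen with earlier results of these data known. By rule, the genes named are the members and the 2 genes with the smallest p of each pathway list. It also names the 5 genes most like the members with a mean of at least 1 CPM. Irf1, Rfx5, H2-Q7, H2-Q9, Abca1, Srebf1 and Abcg1 were named after their values were seen. So were the T cell genes, Eomes, the neutrophil and monocyte genes and the globin genes. Of the genes that this rule names, 1 is not reported here.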

Additional observations from a re-analysis of the deposited data

Results flagged for a closer look

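Tapbp in vehicle replicate 2, at 34.2 CPM, stood far from the other 3 vehicle libraries, which were at 27.9, 27.9 and 29.0 CPM. The gap to the nearest library was 0.834 of the group's range, above the critical value of Dixon's test for 4 samples. It was 1 of 20 groups of 4 checked over the 10 members, and chance gives about 1 in 20.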

How the results depend on the processing

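The members' log2 fold changes were recomputed under 21 alternatives each, and 208 of 210 values were positive, as with all 8 libraries. The 2 others were H2-T23 and Nlrc5, at -0.041 and -0.042 within replicates 2 and 4. Past the adjusted threshold were 2 values, H2-T23 at 0.89 and Tapbp at 0.58 within replicates 1 and 3, so that 2 members were called there and 0 elsewhere. At an unadjusted p below 0.05, 9 members were higher within replicates 1 and 3, 2 within replicates 2 and 4, and 4 to 7 when 1 library was left out, against 2.67% to 5.73% of all genes in those fits with 1 library left out. Members with no overlap numbered 2 to 6 when 1 library was left out, against 3.99% to 6.56% of all genes. Genes called over the whole table, 1 higher and 0 lower by edgeR's quasi-likelihood test, were 69 higher and 20 lower by DESeq2, 29 higher and 2 lower by edgeR's exact test, 332 higher and 378 lower within replicates 1 and 3, 0 higher within replicates 2 and 4, and 1 to 2 higher when 1 library was left out. The subsets hold 2 libraries per group. In each subset the vehicle libraries were below 1 CPM in either Xist or Y-linked transcripts, while the bexarotene libraries held both. Treatment and sex cannot be told apart there, and otherwise the cause was not tested. With the replicate number as a block, H2-K1 was at 0.43 and Nlrc5 at 1.03, and the pairing changed no call. Nlrc5 had 21 to 154 counts per library.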
